A study of Homo sapiens with 2 samples.

Results

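Messenger RNAs of mitosis, centrosome and DNA replication genes were examined in RNA recovered with a catenin immunoprecipitation (IP) from MDA-MB-231 cells, a widely used human line of triple-negative breast cancer. The genes were chosen by symbol from the list of enriched regions (peaks) of that library: kinesins (KIF), centromere (CENP) and centrosome (CEP) proteins, checkpoint and mitotic kinases (BUB, AURK, PLK), cyclins A, B and E, the CDC and CDK names, MCM, SMC and NCAP proteins, replicative polymerases (POLA, POLD, POLE), topoisomerases, CKAP names, and RIF1, MKI67, TPX2, ASPM, NUMA1 and PCNT. They came to 62 of the 1658 genes with a peak. The study had 2 samples, the catenin IP and an input, both from that line with no treatment named, and with 1 library each. The file used here belonged to the IP, so the values carry no replicate error and samples could not be compared by a test. The title of the IP sample gives B-catenin. The labels do not name the antibody used or a control IP.

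A tag count is the number of tags in a peak, and a gene's tags are summed over the peaks of its transcript with the most tags. Intervals on tags are exact Poisson intervals at 95%, which cover counting error only. Density is given in tags per kb of peak (tags over summed peak length), which scales the count by peak length. Fold is the enrichment that the authors' peak caller gave to a peak, and a gene's fold is that of its highest peak. Only peaks past the threshold of the authors are in the file, the weakest with 11 tags, so a gene that is missing had no listed peak and may still have been present. Positions are nucleotides (nt) of the Ensembl transcript as numbered in the file. From which end the numbers run is uncertain for genes on the minus strand, 33 of the 58 whose strand was assigned from RefSeq, as described with the region labels.

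As background, cells replicate their DNA in S phase, after the MCM helicase has been loaded at origins. In mitosis, SMC complexes and topoisomerase II shape the chromosomes, kinetochores attach them to spindle microtubules, and centrosomes organise the spindle poles. Beta-catenin is known as an adhesion protein and a transcriptional effector of Wnt signalling, and a pool of it is found at centrosomes. Several of the messenger RNAs described here encode very large coiled-coil proteins.

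The label fitted the selected genes in part. By role, 41 of the 62 belonged to lists of mitosis, centrosome, chromosome structure or replication genes, and the other 21 did not. These 21 were mainly transport kinesins, transcription or splicing CDKs and genes whose main role lies elsewhere. The annotation that the authors joined to the transcripts draws this line differently. It gave the term cell cycle to CDK12, CDK13, CDK11A, KIF3B, KIF13A, TOP3A, CDC5L and CDC73 among them. In the same annotation, 26 of the 62 genes carried the term mitotic nuclear division, against 85 of all 1658 genes. CDK11A, CDK13 and KIF3B, outside the lists, are among the 26. Microtubule organizing center was given to 27 of the 62 and to 113 of all genes, and chromosome to 27 and 183. The names were chosen for these functions, so these shares describe the selection. Of 9 mesenchymal and basal markers of this cell line, 4 had a peak (FN1, EGFR, ZEB1 and MSN). Of 9 luminal epithelial markers 0 had a peak, where the share over all protein-coding symbols was 8.11%, so this absence does not tell the cell types apart.

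The 62 genes had 97 peaks and 6548 tags, 4.90% of the 133739 tags over the peaks of all genes. Their tags ran from 12 to 833, with a median of 59, against a median of 41 over all genes. The median density was 32.7 tags per kb, against 29.8 over all genes, and the median fold was 8.39, against 7.56. A fold of at least 10 was reached by 22 of the 62 (35.5%), where the share over all genes with a peak was 30.3%. At least 100 tags were found on 18 (29.0%), where the share over all genes was 21.4%. More than 1 peak was listed for 24 (38.7%), against 31.5% of all genes. The exact binomial intervals of these 3 shares of the 62 genes, 23.7 to 48.7%, 18.2 to 41.9% and 26.6 to 51.9%, all include the share over all genes. The 10 genes with the most tags held 54.7% of the tags of the group and MKI67 alone held 12.7%.

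**Figure D1:**
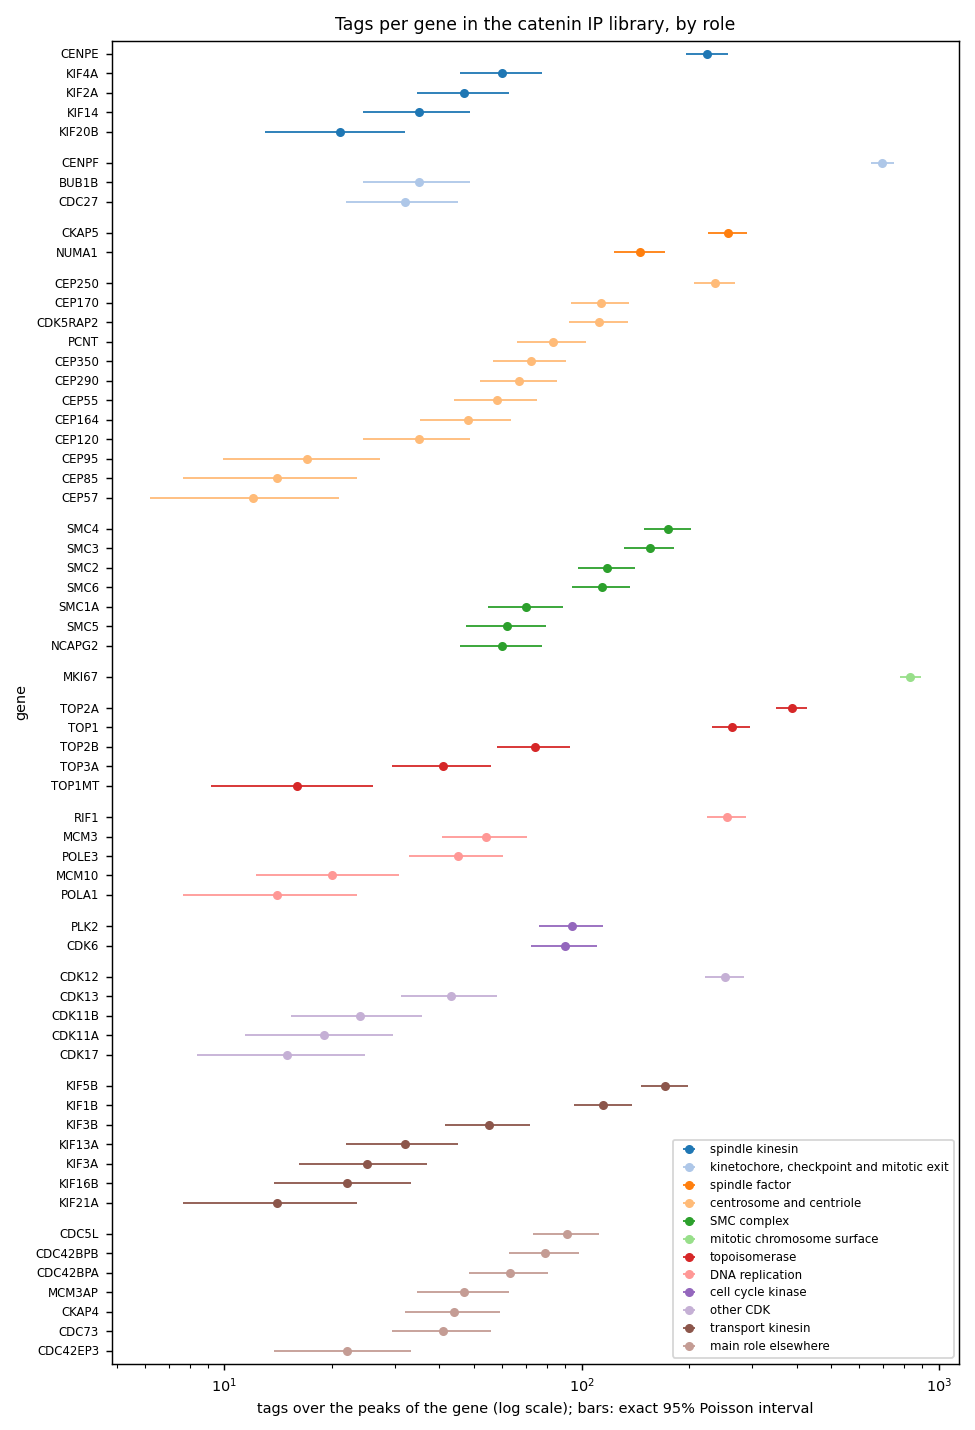
Tags over the peaks of 61 of the 62 genes (x axis, log scale) in the catenin IP library, grouped by role, with exact 95% Poisson intervals as bars. MKI67 (833 tags), CENPF (696) and TOP2A (388) stand to the right of all others, and the intervals of most neighbours overlap.

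The RefSeq table holds 239 protein-coding symbols that match the same names, and 25.9% of them had a peak (62; exact binomial interval 20.5 to 32.0%), against 8.11% of all 20056 protein-coding symbols. By name family the share was highest among the SMC genes, 6 of 7, where only the meiotic subunit gene SMC1B had no listed peak. Topoisomerase names followed with 5 of 7. Centrosome names had a peak in 11 of 39 cases and kinesins in 11 of 42. The CDK names stood at 7 of 28, the MCM names at 3 of 10 and the CDC names at 6 of 33. Centromere names had a peak in 2 of 24 cases, and both are among the genes with the most tags. The CKAP names stood at 2 of 4, the BUB names at 1 of 4, the PLK names at 1 of 5, the NCAP names at 1 of 6 and the polymerase names at 2 of 12. No peak was listed for the 4 AURK names or the 8 cyclin A, B and E names, nor for TPX2 and ASPM. All these shares are of symbols that match a name, not of protein classes. The AURK names include AURKAIP1, the cyclin names CCNB1IP1 and the polymerase names POLDIP2 and POLDIP3. BUB1B-PAK6 and CENPS-CORT are counted among the BUB and centromere names. With 1 library, these shares have no replicate check, and transcript length, which was not available for genes without a peak, was not compared between the families. The 20056 symbols were not limited to genes expressed in this line. No input values were available, so the shares were not set against mRNA abundance. Whether the IP favoured these genes was not tested.

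**Figure D2:**
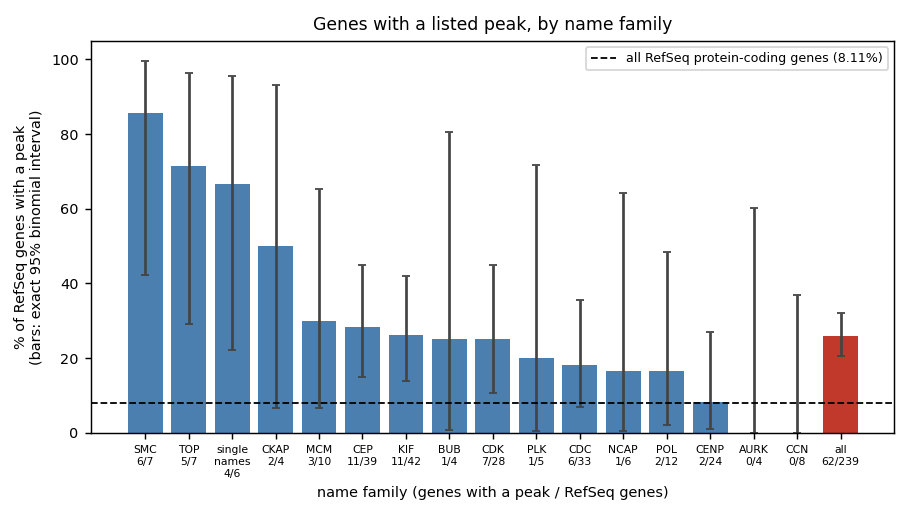
Share of RefSeq protein-coding symbols with a listed peak in each name family (y axis, percent), with exact 95% binomial intervals and the genes counted under each bar. The SMC bar (6 of 7) is the tallest, AURK and CCN stand at 0, and the dashed line marks the 8.11% over all protein-coding symbols.

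Among proteins of the mitotic chromosome, MKI67 had the most tags of the whole group. It encodes Ki-67, the proliferation marker that coats mitotic chromosomes. Its transcript ENST00000368654 carried 833 tags (interval 777 to 892), rank 11 of 1658 genes, at 85.5 tags per kb, the highest density of the 62. A single peak at nt 1472 to 10584 held 819 of them with a fold of 28.36. The other peak, at nt 377 to 1008, held 14 tags with a fold of 6.37. The density was 89.9 tags per kb in the long peak and 22.2 in the short one, and their intervals did not overlap.

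The topoisomerases relieve the strain and the entanglement of DNA. TOP2A, the proliferation-linked topoisomerase II gene, had 388 tags (350 to 429) on ENST00000423485 at 77.0 tags per kb. Its peak at nt 49 to 2412 held 150 tags with a fold of 26.78. The peak at nt 2493 to 5166 held 238 tags with a fold of only 10.74, so the order by fold was the opposite of the order by tags. Per kb, the peak with the lower numbers had 63.5 tags (53.7 to 74.5) and the other 89.0 (78.1 to 101).

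TOP1, which cuts a single DNA strand, had 263 tags (232 to 297) on ENST00000361337. Its 85.4 tags per kb nearly equalled the density of MKI67, while its fold of 9.89 ranked 507 of 1658. The peak at nt 44 to 1873 held 181 tags at 98.9 per kb, the densest peak of the 97, and the peak at nt 1917 to 3167 held 82 at a fold of 4.37. TOP2B, the topoisomerase II gene of non-dividing cells as well, had 74 tags at 27.3 per kb in 2 peaks, at nt 249 to 1398 and nt 2876 to 4435. TOP3A and the mitochondrial enzyme gene TOP1MT had 41 and 16 tags at folds of 5.38 and 7.07. The density of TOP2A and of TOP1 thus lay above that of TOP2B, whose interval of 21.4 to 34.3 tags per kb overlapped neither.

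SMC proteins form ring complexes: SMC1A and SMC3 in cohesin, SMC2 and SMC4 in condensin, and SMC5 and SMC6 in a complex of DNA repair. These 6 genes and the condensin II subunit gene NCAPG2 had 60 to 175 tags, with a median of 114 and a median fold of 12.12, and 6 of the 7 reached a fold of 10, against 30.3% of all genes with a peak. With 7 genes, the exact binomial interval of that share was 42.1 to 99.6%. That interval treats the genes as independent draws, but they share a library and their roles were chosen with earlier results known. Whether these genes exceed the share over all genes was therefore not tested. SMC4 had 175 tags (150 to 203) in a peak at nt 599 to 4303 of ENST00000344722, at 47.2 per kb and a fold of 12.12. Its partner SMC2 had 118 tags (97.7 to 141) at nt 599 to 3694 of ENST00000286398, at 38.1 per kb and a fold of 12.16. The densities of these condensin partners had overlapping intervals. NCAPG2 had 60 tags (45.8 to 77.2) at nt 6 to 1614 of ENST00000356309, at 37.3 per kb and a fold of 9.54.

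The cohesin partners were farther apart. SMC3 had 155 tags (132 to 181) at nt 86 to 2072 of ENST00000361804, with 78.0 per kb (66.2 to 91.3) and a fold of 14.10. SMC1A had 70 tags (54.6 to 88.4) in peaks at nt 140 to 1616 and nt 1976 to 3025 of ENST00000322213, with 27.7 per kb (21.6 to 35.0) and a fold of 10.42. Their intervals did not overlap. SMC5 had 62 tags (47.5 to 79.5) at nt 381 to 1657 of ENST00000361138, at 48.6 per kb, with a fold of 16.21 that was the highest of the complex genes. SMC6 had 114 tags (94.0 to 137), 57 in each of its peaks at nt 59 to 1783 and nt 1985 to 2990 of ENST00000351948, at 41.7 per kb and a fold of 11.58.

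At the kinetochore, CENPF and CENPE carried most of the tags. CENPF encodes a very large coiled-coil protein of the outer kinetochore and had 696 tags (645 to 750) on ENST00000366955, rank 16 of 1658, at a fold of 24.89. Its 3 peaks, at nt 41 to 800, nt 912 to 4354 and nt 4455 to 9801, held 61, 250 and 385 tags. They were separated by only 111 and 100 nt and covered 97.8% of the span from the first to the last nt. Their densities of 80.3, 72.6 and 72.0 tags per kb had overlapping intervals. How tags were distributed within each peak is not in the file.

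CENPE, a kinesin that moves chromosomes to the spindle equator, had 225 tags (197 to 256) in its only peak, nt 1724 to 6258 of ENST00000265148, at 49.6 per kb and a fold of 20.26. BUB1B, which encodes the checkpoint protein BubR1, had 35 tags (24.4 to 48.7) at nt 306 to 1879 of ENST00000287598, at 22.2 per kb and a fold of 7.52. CDC27, a subunit of the anaphase-promoting complex, had 32 tags in 2 peaks at a fold of 4.63. The counts of BUB1B and CDC27 lay far below those of CENPF and CENPE.

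Spindle factors were represented by CKAP5 and NUMA1. CKAP5 encodes the microtubule polymerase chTOG, and its peak at nt 24 to 4883 of ENST00000312055 held 257 tags (227 to 290), at 52.9 per kb and a fold of 19.68. NUMA1, which tethers microtubules at the spindle poles, had 146 tags (123 to 172) on ENST00000358965 at 37.6 per kb. Its peak at nt 1775 to 4383 held 121 of them with a fold of 15.63, and the peak at nt 293 to 1567 held 25 with a fold of 4.05. Other listed transcripts of these genes had fewer tags, down to 89 for CKAP5 and 25 for NUMA1.

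The spindle kinesins other than CENPE had 21 to 60 tags, against 225 for CENPE. KIF4A, the chromokinesin, had 60, and KIF2A, a microtubule depolymerase, had 47 at a fold of 9.73. KIF14 and KIF20B, both of cytokinesis, had 35 and 21. Their densities ran from 18.8 to 34.1 tags per kb, against 49.6 for CENPE. The transport kinesins, which move organelles and vesicles in interphase, spanned 14 to 171 tags. KIF5B, the conventional kinesin heavy chain, led them with 171 tags (146 to 199) at nt 340 to 3466 of ENST00000302418, at 54.7 per kb and a fold of 11.05. KIF1B had 115 tags (94.9 to 138) at nt 110 to 2765 of ENST00000263934, at 43.3 per kb and a fold of 12.73. KIF3A and KIF3B encode the motor pair of kinesin-2, which works in cilia, and had 25 and 55 tags. KIF13A, KIF16B and KIF21A had 32, 22 and 14.

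The centrosome and centriole genes formed the largest role group, with 13 genes, 25 peaks and 879 tags. Their median of 58 tags lay close to that of all 62 genes (59), while their median density of 25.2 tags per kb and median fold of 6.95 were lower than the 32.7 tags per kb and the fold of 8.39 of the 62. CEP250, the centriole linker protein C-Nap1, had 236 tags (207 to 268) on ENST00000397527 at 33.5 per kb. Its 3 peaks at nt 596 to 4132, nt 4339 to 6544 and nt 6647 to 7955 held 120, 87 and 29 tags, with folds of 20.26, 12.16 and 6.37. CEP170, of the subdistal appendages, had 113 tags (93.1 to 136) at nt 216 to 1598 and nt 1651 to 3056 of ENST00000366542, at 40.5 per kb and a fold of 13.89. CDK5RAP2, which recruits gamma-tubulin rings, had 112 tags (92.2 to 135) at nt 204 to 2655 of ENST00000349780, at 45.7 per kb and a fold of 12.73.

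PCNT, the pericentrin scaffold of the pericentriolar material, had 83 tags (66.1 to 103) in 5 peaks, more peaks than any other of the 62 genes. They lay between nt 32 and 5419 of ENST00000359568, held 11 to 26 tags each, and had densities of 22.3 to 26.1 tags per kb, all within counting error of each other. CEP350 and CEP290 had 3 peaks each with similarly low densities: 72 tags at 23.2 per kb (18.2 to 29.2) for CEP350, and 67 tags with a density interval of 17.1 to 28.0 per kb for CEP290. CEP290, of the ciliary transition zone, and CEP164, of the distal appendages, are needed for cilia, and CEP164 had 48 tags. CEP55, which acts in abscission, had 58 tags at 43.7 per kb, and CEP120, of centriole elongation, had 35. CEP95, CEP85 and CEP57 had 17, 14 and 12 tags, close to the 11 of the weakest listed peak.

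**Figure D3:**
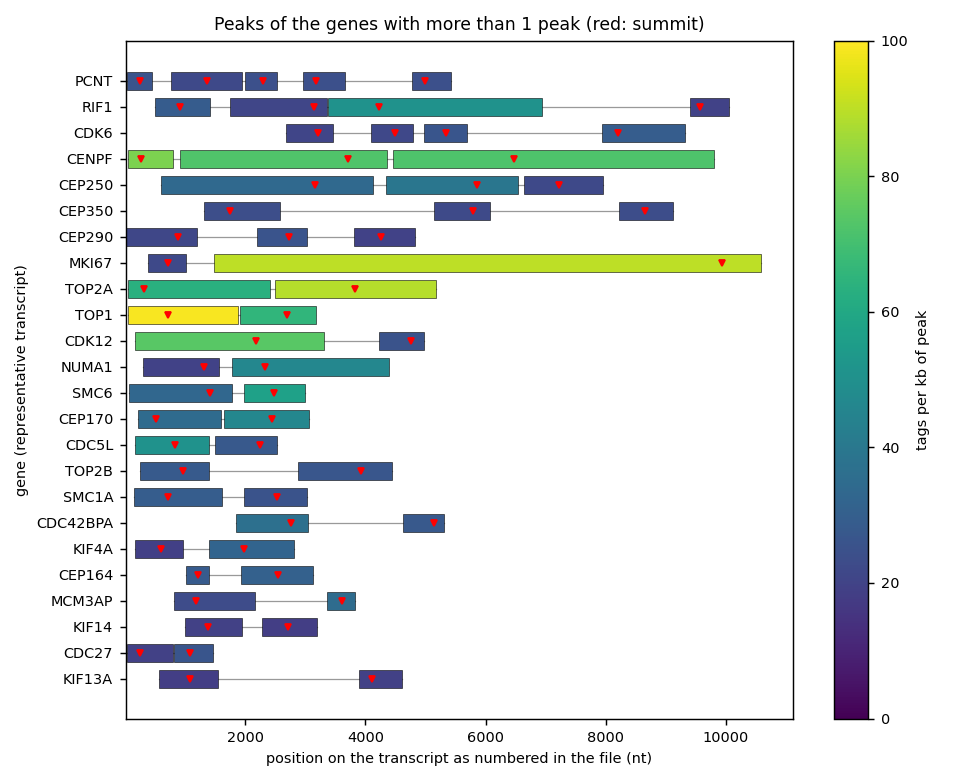
Peaks of the 24 genes with more than 1 peak along their representative transcripts (x axis, position in nt as numbered in the file, which may run from either end for minus-strand genes), coloured by tags per kb of peak, with red marks at the summits. CENPF, TOP1 and TOP2A are covered almost without gaps at high density, while the peaks of PCNT, CDK6, CEP350 and CEP290 are short, separate and sparse.

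Of the replication genes, RIF1 stood apart from the others in tags, when counted on the transcript with the most tags. It encodes a regulator of replication timing and of double-strand break repair and had 255 tags (225 to 288) on ENST00000243326, at 37.7 per kb and a fold of 12.16. Its peak at nt 3368 to 6946 held 182 of them at 50.9 per kb, while those at nt 499 to 1404, nt 1742 to 3358 and nt 9400 to 10054 held 26, 34 and 13. The lowest of the 6 listed RIF1 transcripts had 46 tags. Of the MCM2 to MCM7 helicase, only MCM3 had a listed peak, with 54 tags (40.6 to 70.5) at nt 1615 to 2481 of ENST00000229854, at 62.3 per kb and a fold of 4.09, the lowest fold of the 62. MCM10, which acts when the helicase is activated, had 20 tags at a fold of 8.10.

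Of the replicative polymerase genes, POLE3, a histone-fold subunit of polymerase epsilon, had 45 tags (32.8 to 60.2) at nt 169 to 779 of ENST00000374169, at 73.6 per kb (53.7 to 98.5) and a fold of 4.88. POLA1, the catalytic subunit of the primase-polymerase, had 14 tags (7.65 to 23.5) at nt 2699 to 3397 of ENST00000379059, with a density interval of 10.9 to 33.6 per kb and a fold of 5.21. POLE3 thus had a higher density than POLA1 with intervals that did not overlap, while their folds were close.

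Among kinases, CDK12 had the highest fold of the 62 genes, 31.84, which ranked 29 of 1658. It encodes a kinase of RNA polymerase II that is required for expression of DNA repair genes. It was not counted here among the cell cycle CDKs. Its 252 tags (222 to 285) on ENST00000447079, at 64.8 per kb, lay mostly in the peak at nt 170 to 3309, with 233 tags, and otherwise at nt 4228 to 4973, with 19. Its close relative CDK13 had 43 tags at 33.5 per kb and a fold of 9.26. CDK11B and CDK11A, near-identical copies, had 24 and 19 tags, and how reads were divided between them is not known. CDK17 had 15.

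CDK6, the G1 kinase that pairs with D cyclins, was the only CDK with a peak in the list of cell cycle cyclins and CDKs. CDK11A, CDK12 and CDK13 are not in that list but carry the term cell cycle in the joined annotation. Its 90 tags (72.4 to 111) lay in 4 peaks between nt 2684 and 9321 of ENST00000265734, with 16, 15, 19 and 40 tags, at 25.2 per kb and a fold of 11.58. All 4 were labelled 3' untranslated. PLK2, a Polo-like kinase of centriole duplication and stress responses, had 94 tags (76.0 to 115) at nt 449 to 1869 of ENST00000274289, at 66.2 per kb but a fold of only 4.96.

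Finally, 7 genes matched the names but have their main role elsewhere, although CDC5L and CDC73 carry the term cell cycle in the joined annotation. CDC5L, a spliceosome component, had 91 tags (73.3 to 112) at nt 156 to 1398 and nt 1496 to 2519 of ENST00000371477, at 40.1 per kb and a fold of 12.94. CDC42BPB, a kinase downstream of the GTPase CDC42, had 79 (62.5 to 98.5) at nt 1403 to 3125 of ENST00000361246, at 45.9 per kb and a fold of 14.47. Its relative CDC42BPA had 63 tags and CDC42EP3, a CDC42 effector, had 22. MCM3AP, of mRNA export, had 47 tags (34.5 to 62.5) at nt 807 to 2165 and nt 3367 to 3823 of ENST00000291688, at 25.9 per kb and a fold of 8.10. CKAP4, a membrane protein of the endoplasmic reticulum, had 44 (32.0 to 59.1) at nt 496 to 1198 of ENST00000378026, at 62.6 per kb and a fold of 6.09. CDC73, of the PAF1 transcription complex, had 41. Together they held 387 tags, 5.91% of those of the 62 genes.

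In the order by tags, the intervals of neighbours overlapped in 58 of 61 pairs, so the fine order is not resolved by counting. The intervals of MKI67, CENPF, TOP2A and TOP1 did not overlap from each gene to the next. Across the 62 genes, tags and fold had a Spearman correlation of 0.79, against 0.56 over all 1658 genes. Tags and summed peak length correlated at 0.91 and 0.92. Tags and density correlated at 0.72 and 0.71, so density still rose with the count. These are descriptions of genes in 1 library that share its depth, and tags enter both the count and the peak calls. Density and fold ranked genes differently. Of the 10 genes with at least 60 tags per kb, 5 had a fold under 10: TOP1, POLE3, PLK2, CKAP4 and MCM3.

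**Figure D4:**
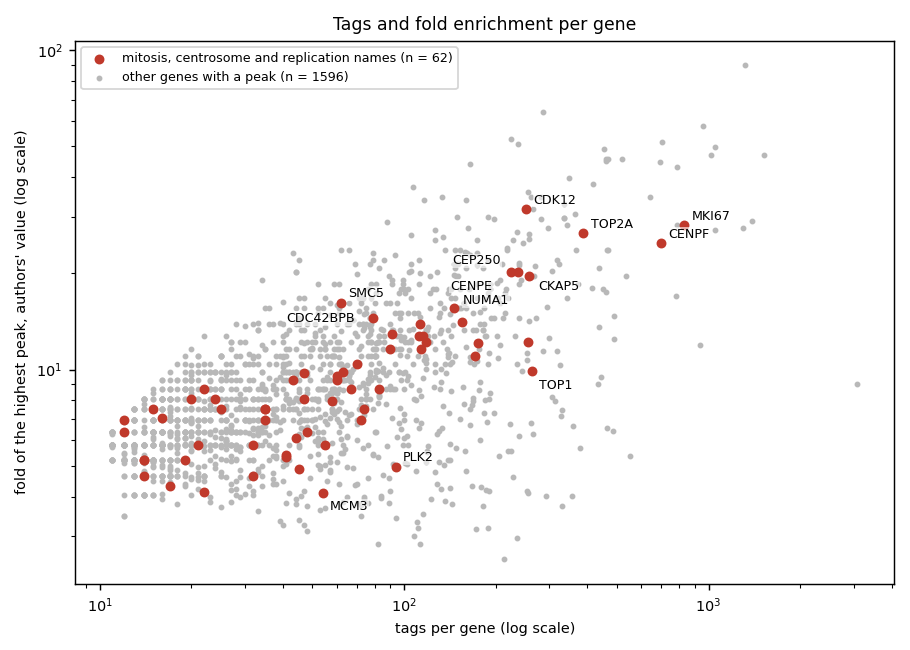
Tags per gene (x axis, log scale) against the fold of its highest peak (y axis, log scale) for the 62 genes in red and the 1596 other genes with a peak in grey. CDK12 has the highest fold of the red points (31.84), MKI67 the most tags (833), and MCM3 (4.09) and PLK2 (4.96) lie low for their tags.

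Those 5 genes share a feature of the fold values, which 2 of the other 5, TOP2A and SMC3, have as well. Across the whole list, many folds are whole multiples of 0.5788, to within 0.0051, and among the 97 peaks of the 62 genes this held for 74 (76.3%), against 70.1% of all 2440 peaks. The 23 peaks off the multiples had a median of 50.7 tags per kb, against 26.3 for the 74 on them, while the median folds were 7.07 and 7.52. In the other genes the corresponding densities were 37.9 and 26.0 tags per kb. All peaks of TOP1, POLE3, PLK2, CKAP4 and MCM3 lay off the multiples, as did those of TOP2A and SMC3, and 6 of the 8 topoisomerase peaks in all. Of the 25 centrosome and centriole peaks 23 lay on them. How the authors' peak caller set the denominator of the fold is not stated in the sources used here, so folds on and off the multiples may not be comparable.

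**Figure D5:**
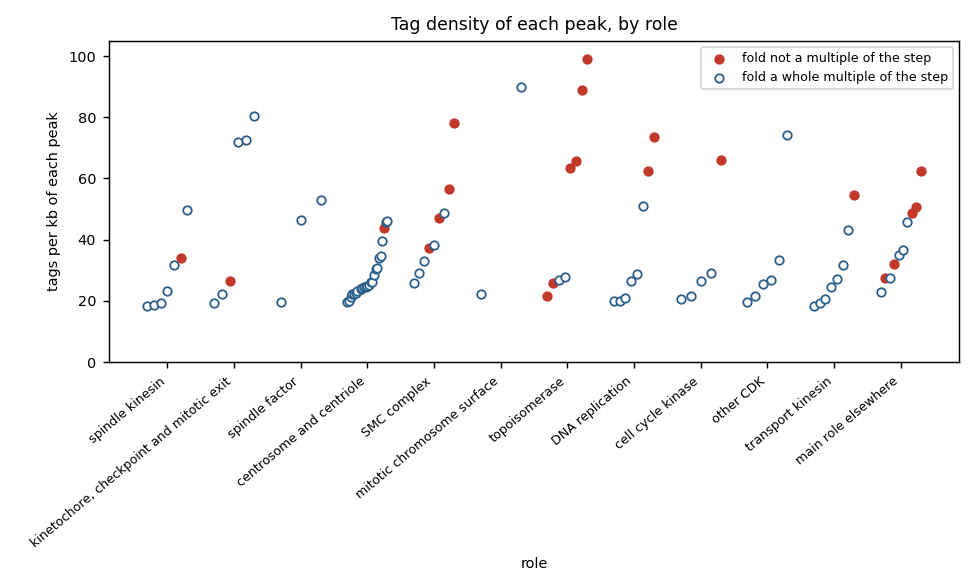
Tags per kb of each of the 97 peaks (y axis), by role of the gene, with filled points for peaks whose fold is not a whole multiple of 0.5788 and open points for the others. Topoisomerase peaks are mostly filled and reach 98.9 tags per kb, and centrosome peaks are mostly open and stay below 50.

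By the authors' region labels, 51 of the 97 peaks lay in coding sequence alone, 52.6% (exact binomial interval 42.2 to 62.8%), against 39.7% over all genes. With only peaks that had a score of at least 100 the share of the 62 genes was 39.5%. The share over all genes was not computed at that score, so the 39.7% above is not its counterpart. The 3' untranslated label alone was given to 15.5%, against 28.2% over all genes. Peaks of the same gene are not independent.

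The order of labels and positions followed the strand of the gene. In 7 of 10 comparisons, a peak with a 3' untranslated label began and ended before any coding-only peak on that transcript, as in TOP2A, NUMA1 and CEP290, and all 7 genes lie on the minus strand. The other 3, CDK12, CENPF and RIF1, lie on the plus strand. Over all genes, labels and positions ran in the order of the genome in 222 of 222 comparisons, 115 of them in minus-strand genes. Either the positions of minus-strand genes count from the 3' end or their labels were assigned as if they did. The sources used here do not settle which. The labels also differed between the strands over all genes, while the positions differed little. The 3' untranslated label alone was given to 44.1% of minus-strand peaks and 13.5% of plus-strand peaks, and the label for the 5' untranslated and coding regions to 0.80% and 16.9%. The median start was nt 1168 and nt 1055. Among the 62 genes, coding sequence alone was the label of 42% of 50 minus-strand peaks and 63.4% of 41 plus-strand peaks. Over all genes it was the label of 29.4% of 995 minus-strand and 49.2% of 1000 plus-strand peaks. The label shares above thus depend on the strand of the genes, and on each strand the share of the 62 genes was the higher one. Tags, densities and folds do not use the direction.

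Genes of the same pathways that the names do not cover were counted from 11 lists. The lists were chosen with earlier results of these data known, so their shares with a peak are no independent check. Of their 166 genes 41 had a peak (24.7%), against 8.11% of all protein-coding symbols, with a median of 38 tags, a median of 27.6 tags per kb and a median fold of 8.68. A fold of at least 10 was reached by 12 of the 41, against 30.3% of all genes with a peak. The centrosome list added 9 of 18 genes. NIN, the subdistal appendage protein ninein, led them with 239 tags (fold 14.47), followed by AKAP9, a kinase anchor at centrosome and Golgi, with 234 (fold 10.42). Of 12 further cohesin, condensin and loading genes 5 had a peak, led by the cohesin loader NIPBL with 150 tags (fold 19.68) and the cohesin regulator PDS5A with 118 (fold 10.81). In cytokinesis 4 of 5 did, among them the citron kinase gene CIT with 128 tags (fold 20.26) and the anillin gene ANLN with 118 (fold 10.49).

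The other lists held fewer tags. Spindle and microtubule factors added 7 of 17 genes, led by TACC1 with 80 tags and DLGAP5 with 72 (folds 11 and 3.77). Replication fork genes added 5 of 23, led by the checkpoint mediator gene CLSPN with 79 tags and the clamp loader gene RFC1 with 52 (folds 15.05 and 8.68). Cyclins, CDK regulators and E2F factors added 4 of 20, led by CCND1 (cyclin D1) with 125 tags and E2F7 with 37 (folds 8.79 and 8.68). Origin genes added 2 of 19, ORC4 with 26 tags and TOPBP1 with 16. Kinetochore genes added 3 of 22, among them CLASP2 with 17 tags. Checkpoint and mitotic kinase genes added 2 of 16, HASPIN (listed under its older symbol GSG2) with 22 tags and INCENP with 12. The list of the anaphase-promoting complex and chromatid separation added 0 of 14.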

How the data were processed

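RNA of a catenin IP from MDA-MB-231 was sheared to about 300 to 500 bp, per the labels' protocols. The submitters' processing notes name hg18. Aligner, peak caller, annotation and background library are not stated in the sources used here, and the library's depth is unknown. The tag count of each peak is the whole number deposited by the authors. The fold is the ratio per peak from the authors' peak caller, per the file headers. A column whose header was lost is called the score here. This deposited score, at least 30, served only to filter peaks. Of 6195 deposited peaks, 2440 remained with the transcript of most tags per symbol. Python 3.11.15 with pandas 2.3.3 and scipy 1.17.1 was used. The step of the fold was the value between 0.5 and 0.7 with the most folds on its multiples. The choice of transcript, the match of names, the search for the step and the Poisson intervals were tested on simulated data. The other procedures were not. Names and the 239 and 20056 symbols come from RefSeq (GRCh38.p14), which held all 62 genes. Its coordinates were not used because the builds differ. Genes were named, apart from single values not reported here, with full values for the 10 highest by tags, the 10 by fold, the 5 by tags per kb and the 2 with most tags per name family and, outside the names, per list. Genes, lists and roles were chosen with earlier results of these data known.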

Additional observations from a re-analysis of the deposited data

How the results depend on the processing

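A score of at least 100 left 32 of the 62 genes, 5 with more than 1 peak and 15 genes of the further lists, and gave medians of 113.5 tags, 45.8 tags per kb and a fold of 12.16, with 39.5% of peaks in coding sequence alone. Each transcript counted on its own gave 171 transcripts, 59 with a fold of at least 10 and 51 with several peaks. Limiting the group to the fixed lists left 41 genes. Peaks of at least 20 tags left 13 genes with several peaks. Off the multiples of 0.5788, a setting chosen after seeing the data, the median fold was 7.515. That is only just below 7.52, the lower limit of the interval of the original median. The moved counts rest on how many genes, peaks or transcripts each setting keeps. The moved medians and the moved coding share rest on which peaks are kept, so these values depend on the setting. The remaining 42 of 55 values stayed within 1.5 times (counts) or the 95% interval of the original value (shares and medians). No paired analysis was possible because no values of the input were available and the IP and the input are 1 library each. Tags and densities are therefore not corrected for mRNA abundance. In 12 genes the listed transcripts differed in tags by over 2 times. The lowest transcripts of RIF1, CEP250 and SMC6 had 46, 45 and 26 tags. Depth limits the weakest genes: 28 of the 62 had under 50 tags.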
